A study of Caenorhabditis elegans with 10 samples.

Results

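The genes described here encode 10 core proteins of the centrosome of Caenorhabditis elegans: the kinase ZYG-1, the centriole proteins SAS-4, SAS-5 and SAS-6, the scaffold proteins SPD-2 and SPD-5, gamma-tubulin (tbg-1), the kinases AIR-1 and PLK-1, and the TACC protein TAC-1. They were taken by gene name from a table of 46536 genes, each name matched 1 gene identifier, and all 10 passed the filter on low values, as did 6833 genes of the whole table. The samples were RNA-seq libraries of hand-dissected germline tumours, 5 per group, from worms of the Bristol strain on day 1 of adulthood that had grown from synchronised larvae for 48 h at 25 °C. Both groups had the mutations gld-2(q497) and gld-1(q485), with which germ cells form a tumour. The ON group also carried ar202, an activating allele of the germline Notch receptor gene glp-1, written glp-1(ar202), and the OFF group carried glp-1(q175), a null allele. The study contrasts active and absent Notch signalling in a germline that is tumorous either way. The submitters call the libraries of a group biological replicates, and the number of animals per library is not stated.

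The centrosome is the main microtubule-organising centre of dividing animal cells and consists of a pair of centrioles surrounded by pericentriolar material. In C. elegans, SPD-2 and the kinase ZYG-1, a relative of human PLK4, start the duplication of a centriole, SAS-6 and SAS-5 form its central structure, and SAS-4 is needed to assemble the centriole wall. SPD-2 and SPD-5 then build the pericentriolar material under the control of PLK-1, and gamma-tubulin, AIR-1 and TAC-1 act in the nucleation and growth of its microtubules. Mitotic germ cells carry centrosomes, and germ cells also make the centrosome transcripts that are loaded into oocytes for the first embryonic divisions.

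The libraries were made from ribosome-depleted total RNA and held 17.5 to 38.5 M reads in genes. Transcripts of glp-1, which checks the labels, averaged 248 ± 28.2 CPM (reads per 1e6 reads in genes; SD, n = 5) with ON and 88.2 ± 13.5 with OFF. All 12 germ cell markers were detected, with summed levels of 2329 to 3256 CPM in ON and 2130 to 3027 CPM in OFF. Without glp-1 itself the other 11 summed to 2123 to 2982 CPM in ON and 2061 to 2926 CPM in OFF. Among them the meiotic chromosome axis gene htp-3 averaged 113 CPM in ON and 199 CPM in OFF. Of the markers of other cell types, the 7 somatic gonad genes summed to 23.6 to 31.98 CPM in ON and 29.7 to 41.7 CPM in OFF (exact permutation test, two-sided, p = 0.0159), most of it inx-8, and lag-2, fkh-6 and ehn-3 were each below 0.3 CPM in every library. Muscle markers summed to 10.3 to 25.6 CPM in ON and 14.8 to 25.14 CPM in OFF, intestinal markers stayed at or below 12.2 CPM and epidermal markers at or below 3.48 CPM. Neuronal markers, mostly snb-1, summed to 23.3 to 31.4 CPM in ON and 22.8 to 35.2 CPM in OFF. Sperm markers summed to 1.45 to 2.86 CPM in ON and 0.921 to 1.48 CPM in OFF (exact permutation test, two-sided, p = 0.0159). The higher ON sum came from spe-9 (means 1.63 and 0.470 CPM), while fer-1 (0.292 and 0.357) and try-5 (0.118 and 0.346) were lower in ON. The major sperm protein genes msp-142 and msp-3 were at 0. The exact permutation test, two-sided, gave p = 0.540 for germ cell markers and 0.429 for intestinal markers. The exact permutation test, two-sided, gave p = 0.159 for muscle, 0.722 for epidermal and 0.286 for neuronal markers. These p-values were not adjusted over the lists. The part of these other cell types in the values below was not tested. In such bulk samples, fewer expressing cells and less RNA per cell cannot be told apart.

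Despite depletion, ribosomal RNA took 38.96% to 50.8% of the reads, and these reads are part of the total that CPM are taken over. The highest shares were 50.8% in OFF replicate 1 and 49.6% in ON replicate 2. ON replicate 2 was the lowest ON library for all 10 centrosome genes, and OFF replicate 1 the lowest OFF library for 9 of them. OFF replicate 2, with the lowest ribosomal share (38.96%), was the highest OFF library for 6. Each gene is therefore given as deposited CPM, which is the main scale, and again after scaling by trimmed mean of M-values (TMM), which sets libraries to the bulk of the tested genes. TMM lowered the median coefficient of variation of the 10 genes from 9.66% to 5.91% in ON and from 12.7% to 5.02% in OFF. Over all tested genes the median fell from 10.6% to 8.95% in ON and from 14.3% to 8.33% in OFF. TMM moved the log2 differences of all tested genes by a median of 0.0429 towards ON.

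All 10 genes were expressed in both groups, with the same genes at the top and at the bottom of the order per exon length. The transcript of spd-5, the main scaffold of the pericentriolar material, was the most abundant, at 101.5 ± 12.9 CPM per kb of annotated exon in ON and 105.03 ± 14.2 CPM per kb in OFF (SD, n = 5). That of plk-1 followed with 97.1 ± 11.5 and 93.5 ± 12.1 CPM per kb. The level of spd-5 was above that of plk-1 in all 10 libraries, although the ranges of both genes overlapped within each group. A middle tier held tac-1, tbg-1, air-1 and spd-2, at 55.6 to 60.9 CPM per kb in ON and 56.5 to 63.9 CPM per kb in OFF, and the ranges of neighbours in this tier overlapped. The centriole genes and zyg-1 were lowest: sas-6 was at 40.4 ± 2.49 CPM per kb in ON and 41.9 ± 4.84 in OFF, sas-5 at 33.6 ± 4.66 and 32.97 ± 4.58, zyg-1 at 31.6 ± 1.61 and 37.3 ± 4.64, and sas-4 at 21.8 ± 2.48 and 21.4 ± 2.78. The transcript of sas-4 was below each of the others in every library, with no overlap of its range with that of sas-5. The lengths come from the Ensembl annotation of WBcel235, which need not be the annotation used for counting.

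**Figure D1:**
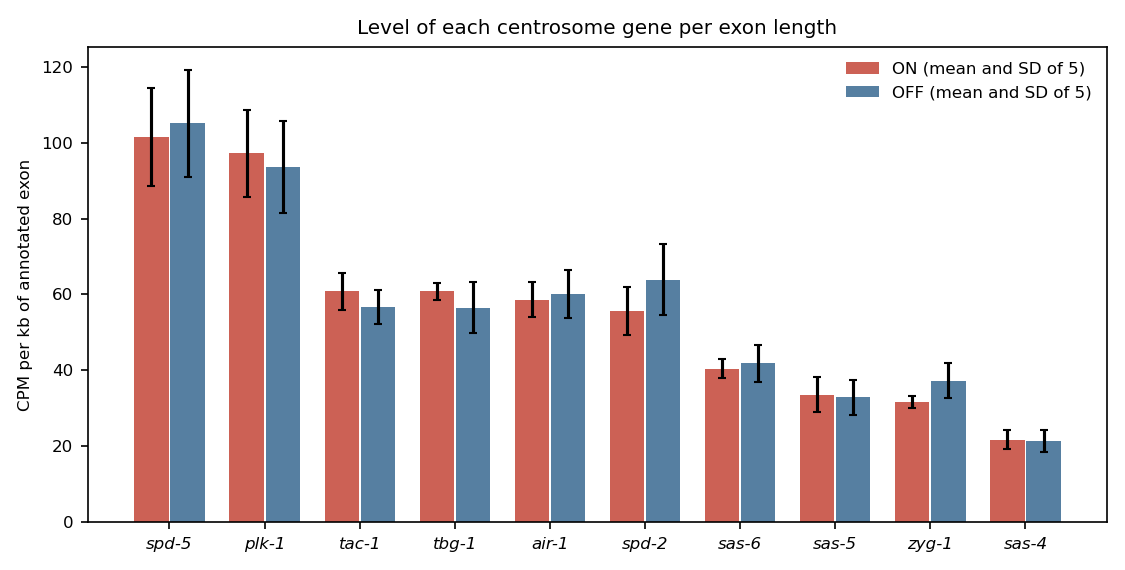
Mean level of each gene in CPM per kb of annotated exon, in ON (red) and OFF (blue), with bars for the SD of 5 libraries, ordered by the ON mean. The transcripts of spd-5 and plk-1 stand above the rest at 93.5 to 105.03 CPM per kb, and sas-4 is lowest at 21.4 to 21.8 CPM per kb.

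None of the 10 genes passed the test between ON and OFF on the CPM scale. The test was limma on log2(CPM + 1) with p adjusted by the Benjamini-Hochberg method over 6833 genes, and a call means an adjusted p under 0.05. Of all tested genes 19.1% were called, 6.70% higher and 12.4% lower in ON, against 0 of 10 centrosome genes. At an unadjusted p under 0.05 there was 1 centrosome gene, zyg-1, beside 31.2% of all tested genes. With edgeR's quasi-likelihood test, which scales by TMM, 3 of the 10 were called, beside 34.9% of all tested genes, and with DESeq2, which scales by median ratios, 4 of the 10, beside 37.1%. The shares of centrosome genes called by these tools were thus near those of all tested genes. The log2 differences, ON minus OFF, ran from -0.23 for zyg-1 to 0.11 for tbg-1, with 5 above and 5 below 0. Their median size, without sign, was 0.0519, against 0.149 over all tested genes. The 95% confidence intervals together spanned -0.43 to 0.31, that is, ratios of 0.740 to 1.24 between ON and OFF. The groups overlapped for all 10 genes, and 14.9% of all tested genes had groups apart.

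After TMM scaling 3 of the 10 genes were called, 2 lower and 1 higher in ON. On that scale 34.8% of all tested genes were called, 18.2% lower and 16.5% higher in ON, so the share of centrosome genes called was near that of all genes. The calls were zyg-1 and spd-2, which fell, and tbg-1, which rose, and each difference was below 0.2 on the log2 scale. The groups stood apart for 1 of the 10 genes, zyg-1, and for 24.4% of the tested genes as a whole. The median size of the difference was 0.0853 over the 10 genes and 0.147 over all tested genes, and the intervals together spanned ratios of 0.821 to 1.20.

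**Figure D2:**
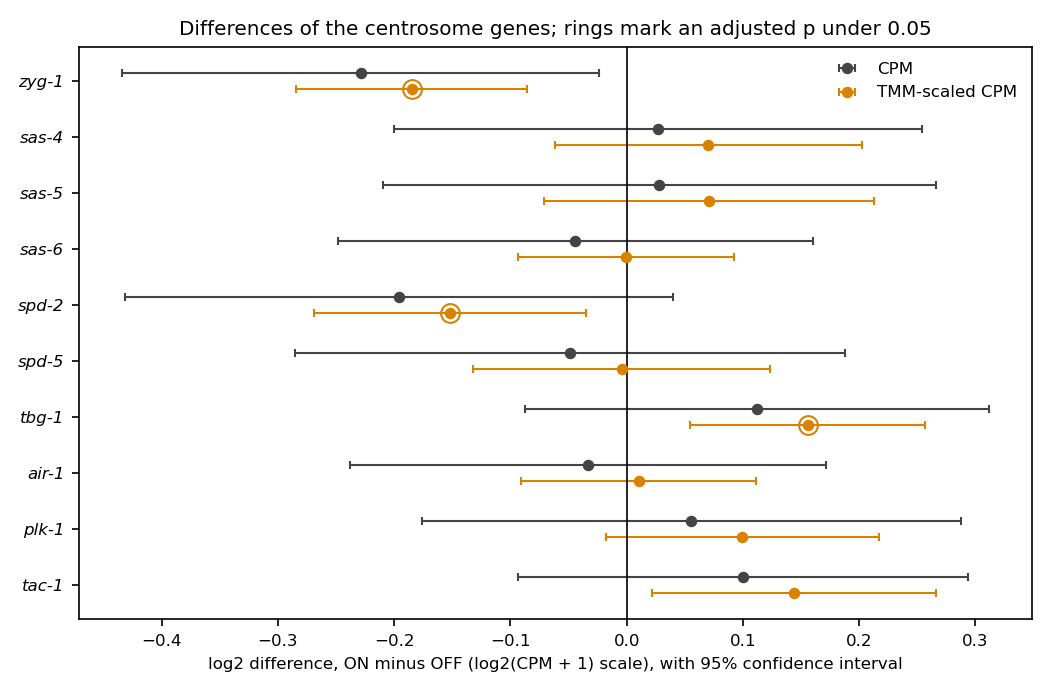
Log2 difference between ON and OFF of each gene on the log2(CPM + 1) scale, with its 95% confidence interval from limma, for CPM (grey) and TMM-scaled CPM (orange). Rings mark an adjusted p under 0.05, and they are found on zyg-1, spd-2 and tbg-1 after TMM scaling only, with all points between -0.23 and 0.16.

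The kinase gene zyg-1 (chromosome II, 5649748 to 5654422, plus strand) had the largest difference of the 10. Its level was 71.8, 69.1, 75.3, 75.4 and 78.9 CPM in ON replicates 1 to 5 and 73.98, 103.7, 87.6, 89.2 and 82.6 CPM in OFF replicates 1 to 5. OFF replicate 1 lay within the ON range and the other 4 OFF libraries lay above all ON libraries. The ON mean was 74.1 ± 3.76 CPM and the OFF mean 87.4 ± 10.9 CPM (SD, n = 5), with a log2 difference of -0.23 (95% interval -0.43 to -0.02), a limma adjusted p of 0.116 and an exact permutation p of 0.0317 (two-sided). After TMM scaling all 5 ON libraries, at 71.1 to 78.7 CPM, lay below all 5 OFF libraries, at 80.9 to 88.7 CPM. The TMM-scaled log2 difference was -0.18 (SE 0.0459), the limma adjusted p was 0.0076, and the exact permutation p was 0.00794, the smallest possible with 5 against 5 libraries. With TMM scaling the call held without any single library (log2 difference -0.21 to -0.17), and on the CPM scale it was reached without OFF replicate 1 (adjusted p = 0.0350). The library numbers in the labels fall into 3 sets of nearby numbers. These hold 1 ON and 2 OFF, 1 ON and 2 OFF, and 3 ON and 1 OFF libraries, so each value within a set rests on 1 library of 1 group. Within these sets the log2 difference of zyg-1 was -0.28, -0.35 and -0.11 on the CPM scale and -0.16, -0.16 and -0.24 after TMM scaling.

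The genes of the centriole itself did not pass the test on either scale. SAS-6 forms the core of the cartwheel-like central structure, and sas-6 (chromosome IV, 13786945 to 13788731, minus strand) was at 59.7, 58.1, 66.3, 66.6 and 64.5 CPM in the 5 ON libraries and at 54.6, 74.3, 65.1, 70.02 and 62.3 CPM in the 5 OFF libraries. Its difference was the closest to 0 after TMM scaling, with 63.9 ± 1.18 CPM for ON, 63.97 ± 2.81 CPM for OFF (SD, n = 5) and a 95% interval of the log2 difference from -0.09 to 0.09. SAS-5 binds SAS-6 and is recruited with it, and sas-5 (chromosome V, 11610737 to 11612596, plus strand) was at 42.5, 38.6, 50.8, 54.6 and 45.1 CPM in ON and 37.5, 50.5, 47.9, 51.3 and 39.9 CPM in OFF. SAS-4 acts later, in the wall of the new centriole, and sas-4 (chromosome III, 8314349 to 8318588, minus strand) was at 51.5, 50.2, 62.1, 64.04 and 62.3 CPM in ON and 46.3, 62.2, 60.4, 63.8 and 52.6 CPM in OFF. The ON and OFF ranges overlapped for each of these 3 genes, and for sas-6 the OFF libraries reached beyond the ON libraries at both ends. Their CPM log2 differences were -0.04 for sas-6, 0.03 for sas-5 and 0.03 for sas-4 (limma adjusted p = 0.806, 0.898 and 0.898), and the intervals reached from -0.25 to 0.27. The signs of these differences depended on the scale or on single libraries.

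SPD-2 has a place in both processes, as it helps to recruit ZYG-1 to centrioles and SPD-5 to the pericentriolar material. The spd-2 transcript (chromosome I, 8966985 to 8970081, minus strand) was at 138, 118, 153, 159 and 153 CPM in the 5 ON libraries and at 136, 196, 159, 185 and 153 CPM in the 5 OFF libraries. ON replicate 2 was the lowest, OFF replicates 2, 3 and 4 were above every ON library, and OFF replicates 1 and 5 lay within the ON range. The means were 144 ± 16.4 and 166 ± 24.2 CPM (SD, n = 5), a log2 difference of -0.20 (95% interval -0.43 to 0.04; limma adjusted p = 0.253; exact permutation p = 0.151, two-sided). After TMM scaling the levels were 146 ± 9.24 and 162 ± 7.998 CPM, with a log2 difference of -0.15 and a limma adjusted p of 0.0448. This call was lost without any 1 of 8 of the 10 libraries, with adjusted p up to 0.101, and was kept without ON replicate 5 (0.0455) or OFF replicate 1 (0.0157). Within the 3 library number sets the log2 difference was -0.23, -0.54 and 0.0146 on the CPM scale, so its sign turned in the last set, and -0.11, -0.34 and -0.12 after TMM scaling.

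The transcript of its partner spd-5 (chromosome I, 5171275 to 5176654, minus strand) was at 380, 341, 421, 471 and 448 CPM in ON and 355, 513, 415, 442 and 408 CPM in OFF. The ON values lay within the range of the OFF values apart from ON replicate 2. The CPM log2 difference was -0.05 (95% interval -0.28 to 0.19; limma adjusted p = 0.814), and after TMM scaling it was within 0.01 of 0 (417 ± 30.3 and 417 ± 21.3 CPM, SD, n = 5). Exons of neighbouring genes overlap 3 of the 10 genes, with 39 bases shared between spd-5 and hcp-6 and 20 between spd-2 and mdt-31, both on opposite strands, and 17 between sas-6 and icap-1 on the same strand. The use of strand in counting is not given, so reads over those bases cannot be assigned with certainty.

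Gamma-tubulin, the template for microtubule growth at the centrosome, is encoded by tbg-1 (chromosome III, 9626536 to 9629154, minus strand). Its transcript was at 92.7, 84.96, 88.3, 90.03 and 92.7 CPM in ON and 74.9, 99.5, 79.1, 85.95 and 77.3 CPM in OFF. OFF replicate 2 was the highest of all 10 libraries, and 3 of the other OFF libraries were below every ON library. The means were 89.7 ± 3.25 and 83.4 ± 9.93 CPM (SD, n = 5), a log2 difference of 0.11 (95% interval -0.09 to 0.31; limma adjusted p = 0.458; exact permutation p = 0.167, two-sided). After TMM scaling tbg-1 rose, from 81.7 ± 2.45 CPM with OFF to 91.2 ± 5.06 CPM with ON, a log2 difference of 0.16 (SE 0.0468) with a limma adjusted p of 0.0212. The lowest ON and the highest OFF library then met at 84.9 CPM. That call was lost without ON replicate 1 (adjusted p = 0.0593), OFF replicate 3 (0.0509) or OFF replicate 4 (0.0552). Within the library number sets the log2 difference was 0.10, 0.0427 and 0.22 on the CPM scale and 0.23, 0.23 and 0.0866 after TMM scaling.

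TAC-1 works with the microtubule polymerase ZYG-9 to support long astral microtubules. The tac-1 transcript (chromosome II, 14752891 to 14753877, minus strand) was at 53.7, 49.4, 52.4, 59.9 and 49.97 CPM in ON and 46.01, 51.0, 47.4, 55.5 and 47.2 CPM in OFF. The ranges overlapped, and 3 OFF libraries lay below every ON library. The log2 difference was 0.10 on the CPM scale (95% interval -0.09 to 0.29; limma adjusted p = 0.498) and 0.14 after TMM scaling (adjusted p = 0.0655). It did not pass the test on either, but passed with median-ratio scaling (adjusted p = 0.0487), quantile normalisation (0.0362) and DESeq2 (0.0402).

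The mitotic kinase genes had no call on either scale. AIR-1, the Aurora A kinase, is needed for centrosome maturation and spindle assembly, and air-1 (chromosome V, 8221488 to 8223582, plus strand) was at 73.3, 70.5, 81.4, 85.2 and 81.6 CPM in ON and 72.5, 84.9, 81.3, 91.5 and 71.7 CPM in OFF. PLK-1, the Polo-like kinase that phosphorylates SPD-5 and drives mitotic entry, is encoded by plk-1 (chromosome III, 8101348 to 8104069, plus strand), at 212, 182, 229, 249 and 240 CPM in ON and 177, 249, 216, 230 and 198 CPM in OFF. The groups overlapped for both kinases. The log2 difference was -0.03 for air-1 (95% interval -0.24 to 0.17; limma adjusted p = 0.858), and its sign turned to 0.01 after TMM scaling. For plk-1 it was 0.06 (95% interval -0.18 to 0.29; limma adjusted p = 0.779) and 0.10 after TMM scaling (adjusted p = 0.175).

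**Figure D3:**
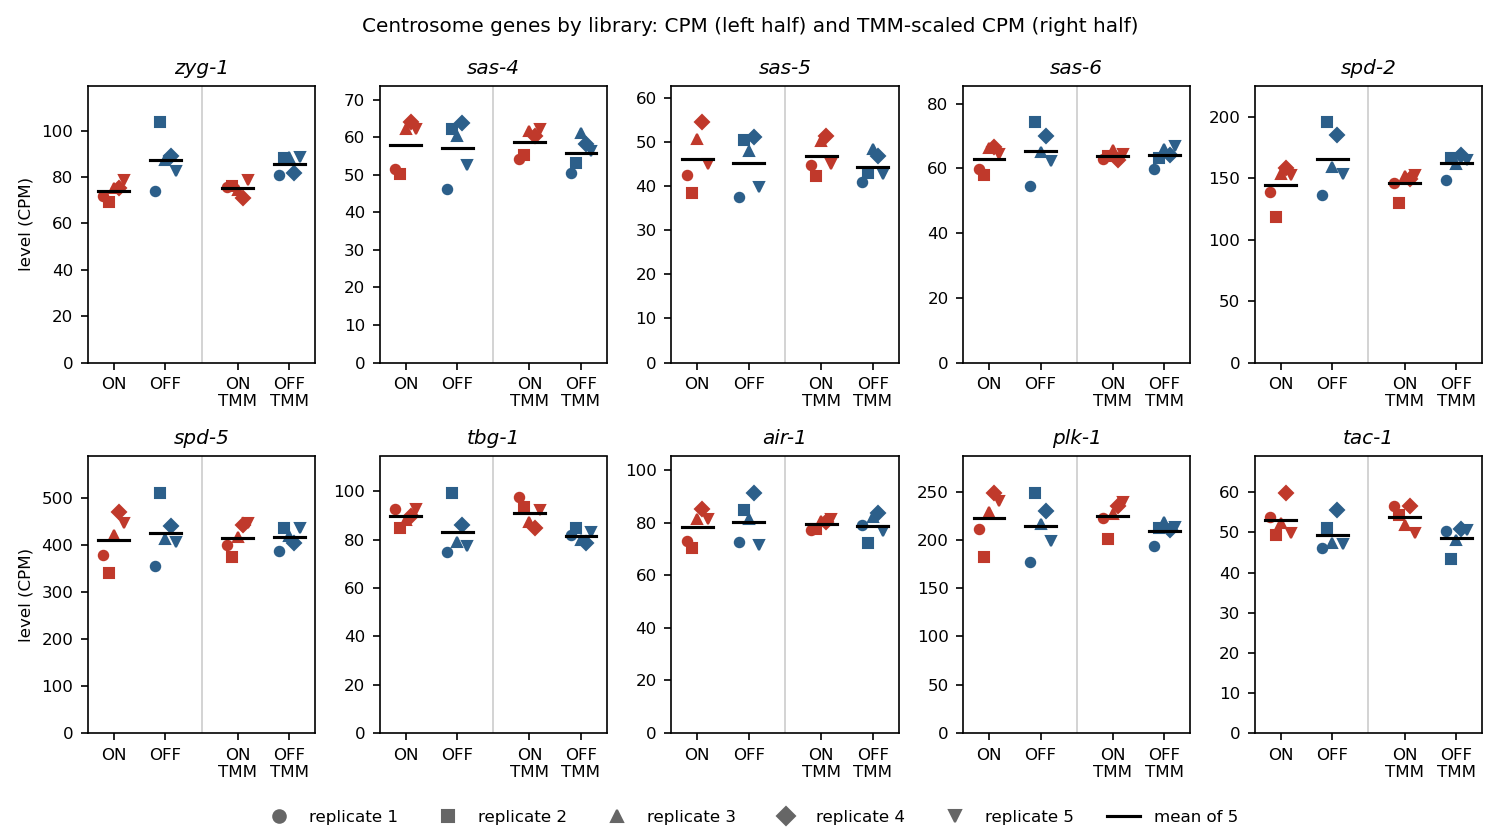
Level of each gene in each library in CPM, as deposited (left side of a panel) and after TMM scaling (right side), for ON (red) and OFF (blue), with a marker for each replicate number and a line at the mean of 5. Replicate 2 of ON and replicate 1 of OFF are low on most left sides, and the groups stand apart on the right side of the zyg-1 panel, at 71.1 to 78.7 CPM against 80.9 to 88.7 CPM.

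Ratios between partner transcripts were taken within each library, where the scaling of the library nearly cancels. Of 8 ratios, 4 differed between ON and OFF at a p under 0.05 (exact permutation test, two-sided, Benjamini-Hochberg adjusted over the 8 ratios). Each involved 1 of the genes called after TMM scaling or tpxl-1, which is described with the other partners. The share of all gene pairs that differ in this way was not computed. Of all tested genes, 24.4% had groups apart and 34.8% were called after TMM scaling. The log2 ratio of zyg-1 to sas-6 was 0.26, 0.25, 0.18, 0.18 and 0.29 in the 5 ON libraries and 0.43, 0.48, 0.42, 0.35 and 0.40 in the 5 OFF libraries, with no overlap. The difference was -0.18 (exact permutation p = 0.00794, adjusted p = 0.0317). The log2 ratio of spd-2 to spd-5 was -1.45, -1.52, -1.45, -1.56 and -1.55 in ON and -1.38, -1.39, -1.37, -1.25 and -1.41 in OFF, again with no overlap, and differed by -0.15 (exact permutation p = 0.00794, adjusted p = 0.0317). So spd-2 was lower relative to spd-5, and zyg-1 lower relative to sas-6, in every ON library than in any OFF library. After TMM scaling sas-6 and spd-5 had log2 differences of -0.0004 and -0.0043. Both ratios thus largely restate the TMM-scaled differences of zyg-1 and spd-2.

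Gamma-tubulin was set against gip-1, which encodes a partner in the gamma-tubulin complex. The log2 ratio of tbg-1 to gip-1 averaged -0.07 ± 0.156 for ON and -0.33 ± 0.122 for OFF (SD, n = 5), which is a difference of 0.26 with a slight overlap of the groups (exact permutation p = 0.0159, adjusted p = 0.0317). The ratio of air-1 to tpxl-1, the gene for the activator of AIR-1, was higher in ON by 0.33 on the log2 scale (1.13 ± 0.158 and 0.80 ± 0.111; exact permutation p = 0.0159, adjusted p = 0.0317). The ratios sas-5 to sas-6, sas-4 to sas-6, tac-1 to zyg-9 and air-1 to plk-1 differed by 0.07, 0.07, 0.14 and -0.09, with exact permutation p-values of 0.294, 0.175, 0.206 and 0.159 (adjusted p = 0.294, 0.233, 0.236 and 0.233). A ratio shows that 2 transcripts differ in their change, not which of them changed.

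**Figure D4:**
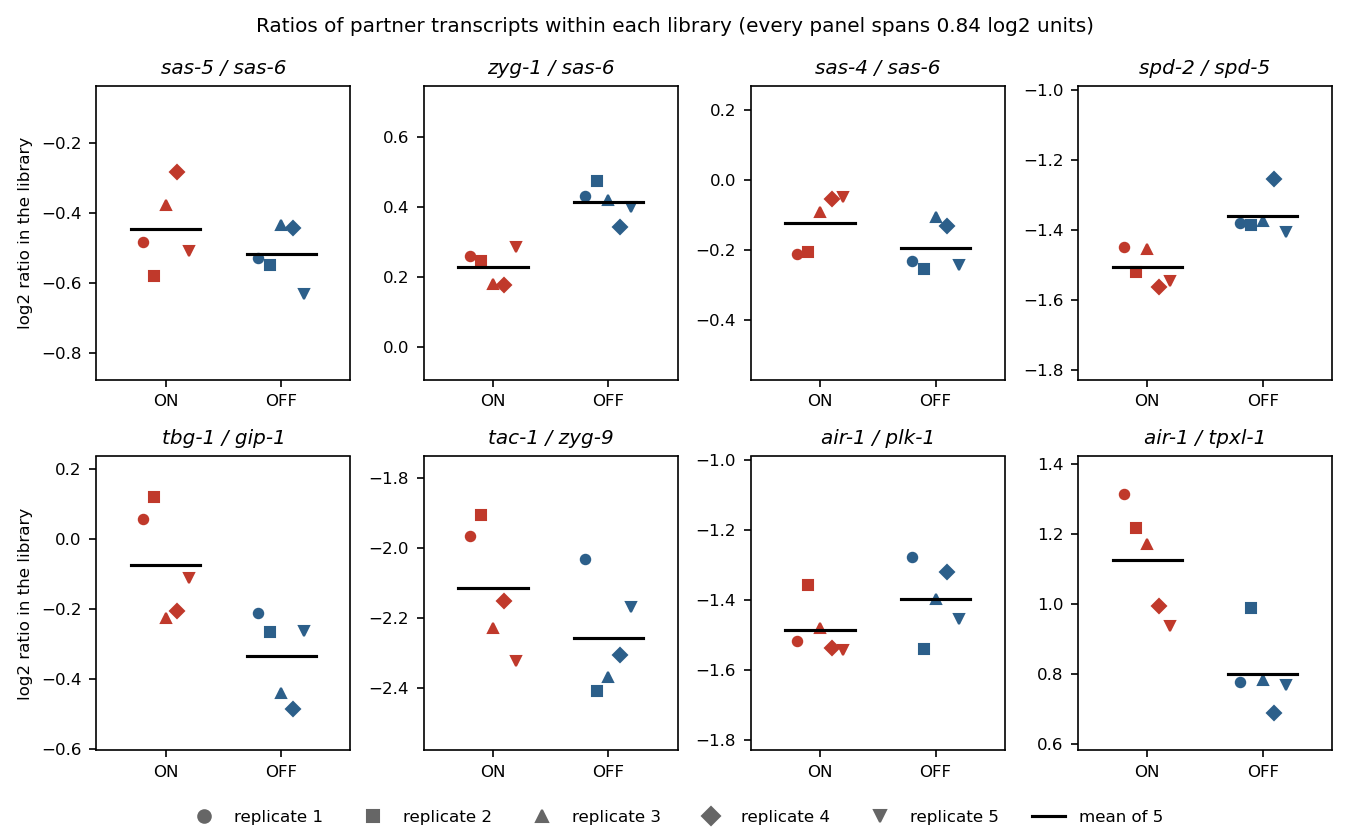
Log2 ratio of partner transcripts in each library, for ON (red) and OFF (blue), with a marker for each replicate number and a line at the mean of 5; all panels have the same span. The groups do not overlap for zyg-1 / sas-6 (0.18 to 0.29 in ON and 0.35 to 0.48 in OFF) and for spd-2 / spd-5 (-1.56 to -1.45 in ON and -1.41 to -1.25 in OFF).

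Around the 10 core genes, 66 genes in 5 lists were examined, of which 63 were tested. On the CPM scale 4 of the 63 rose (6.35%) and 7 fell (11.1%), beside 6.70% and 12.4% of all tested genes, and the median log2 difference was -0.03 against -0.05. After TMM scaling 11 of the 63 rose (17.5%) and 12 fell (19.05%).

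Among 11 partners of the centriole and the pericentriolar material, 1 rose, 2 fell and 8 had no call on the CPM scale (median log2 difference -0.14). Of all tested genes 6.7% rose and 12.4% fell on that scale. After TMM scaling 1 of the 11 rose and 3 fell, beside 16.5% and 18.2% of all tested genes. The pcmd-1 gene, listed in the table as C17D12.7, encodes a protein that tethers the pericentriolar matrix to the centriole. Its transcript was at 103, 96.2, 123, 129 and 107 CPM in ON and 61.3, 88.3, 76.8, 86.4 and 66.1 CPM in OFF, so every ON library was above every OFF library. The ratio of the means was 1.47 and the log2 difference 0.56 (SE 0.116; limma adjusted p = 0.0016). Within the 3 sets of nearby library numbers it was 0.48, 0.24 and 0.84, each value resting on 1 library of 1 group. SAS-7 acts upstream of SPD-2 at the centriole, and sas-7 fell in ON to 92.9 ± 10.6 CPM, against 117 ± 16.4 CPM (SD, n = 5; log2 difference -0.33; limma adjusted p = 0.0445). The transcript of tpxl-1 fell from 45.9 ± 6.28 to 35.8 ± 6.49 CPM (log2 difference -0.36; limma adjusted p = 0.0427). Within the library number sets the log2 difference was -0.53, -0.77 and -0.06 for tpxl-1 and -0.32, -0.69 and -0.19 for sas-7 on the CPM scale. The call of sas-7 was lost without any 1 of 8 of the libraries and that of tpxl-1 without any 1 of 6, with adjusted p up to 0.114 and 0.129. Both were also lost with no filter on low values (adjusted p = 0.110 and 0.117), and that of sas-7 with a filter at 5 CPM (0.0518). Exons of both overlap a neighbour on the opposite strand, by 50 bases for sas-7 and 78 for tpxl-1. The most abundant gene of the list without a call was zyg-9, at 234.9 ± 33.6 and 242 ± 38.04 CPM (adjusted p = 0.860).

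Among 18 regulators of duplication and of the centrosomal kinases, 1 rose, 4 fell and 13 had no call on the CPM scale (median log2 difference 0.01). Of all tested genes 6.7% rose and 12.4% fell on that scale. After TMM scaling 4 of the 18 rose and 6 fell, beside 16.5% and 18.2% of all tested genes. With edgeR 10 of the 18 were called (34.9% of all) and with DESeq2 11 (37.1%). The transcript of spat-1, the worm homologue of Bora and an activator of PLK-1, was at 34.1, 27.3, 36.3, 38.6 and 34.4 CPM in ON and 44.7, 67.1, 53.7, 63.95 and 50.5 CPM in OFF. Every ON library was below every OFF library, and the log2 difference was -0.69 (SE 0.118; limma adjusted p = 2.3e-04). The transcript of fzr-1, an activator of the anaphase-promoting complex that restrains centriole duplication in C. elegans, fell from 66.8 ± 10.3 CPM to 41.3 ± 7.93 CPM (SD, n = 5; log2 difference -0.69; limma adjusted p = 6.9e-04), with no overlap. Within the library number sets the log2 difference of fzr-1 was -0.91, -1.21 and -0.18 on the CPM scale. The cyclin-dependent kinase genes cdk-2 (log2 difference -0.51; limma adjusted p = 0.0038) and cdk-1 (log2 difference -0.43; limma adjusted p = 0.0029) also fell with no overlap of the groups; exons of fzr-1 and cdk-2 overlap neighbours that had a mean level under 1 CPM. The transcript of kin-3, the catalytic subunit of casein kinase 2, rose from 167 ± 23.3 to 220 ± 22.7 CPM (log2 difference 0.40; limma adjusted p = 0.0134). That call was lost with the library number sets as a block (adjusted p = 0.0706). The most abundant gene without a call was plk-2, a close relative of plk-1 with a role in meiotic pairing, at 206 ± 21.6 and 209 ± 20.7 CPM (adjusted p = 0.937).

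Of 14 tested spindle microtubule factors 1 rose and the other 13 had no call on the CPM scale, where 6.7% of all tested genes rose and 12.4% fell. After TMM scaling 2 of the 14 rose and 2 fell, beside 16.5% and 18.2% of all tested genes. The gene that rose on the CPM scale was the alpha-tubulin gene tba-2, which averaged 841 ± 97.6 CPM with ON and 638 ± 81.4 with OFF (SD, n = 5; limma adjusted p = 0.0146; 0.0763 with the library number sets as a block and 0.0522 with no filter on low values). The beta-tubulin gene tbb-2 was at 717 ± 108 and 627 ± 86.2 CPM, without a call on the CPM scale (log2 difference 0.19; limma adjusted p = 0.297) and called higher in ON after TMM scaling (0.23; 0.0293). Tubulin genes are close relatives whose reads may be divided between copies. None of the 12 genes that link the centrosome to the nucleus or pull on it through dynein was called in limma on CPM, with 0 at an unadjusted p under 0.05 (31.2% of all tested genes). With edgeR 1 of the 12 was called (34.9% of all), with DESeq2 2 of the 12 (37.1%), and after TMM scaling lis-1 alone (34.8%). Of these, the dynein heavy chain gene dhc-1 averaged 1225 ± 200.3 CPM with ON and 1239 ± 252.4 with OFF (adjusted p = 0.981). Of 8 tested genes of the chromosomal passenger complex and of mitotic entry, 2 were called on the CPM scale (19.1% of all tested genes) and 4 after TMM scaling (34.8%). On the CPM scale cdc-25.1 rose (log2 difference 0.38; limma adjusted p = 0.0237), cyb-1 fell (log2 difference -0.67; limma adjusted p = 3.3e-04) and 6 had no call, among them wee-1.3, at 118.9 ± 18.3 and 111 ± 17.8 CPM (adjusted p = 0.615). The cdc-25.1 call was lost without ON replicate 3, 4 or 5 (adjusted p up to 0.0591) with the library number sets as a block (0.117), or with no filter on low values (0.0691). Transcripts of ptrn-1, wee-1.1 and cdc-25.2 were below the filter.

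**Figure D5:**
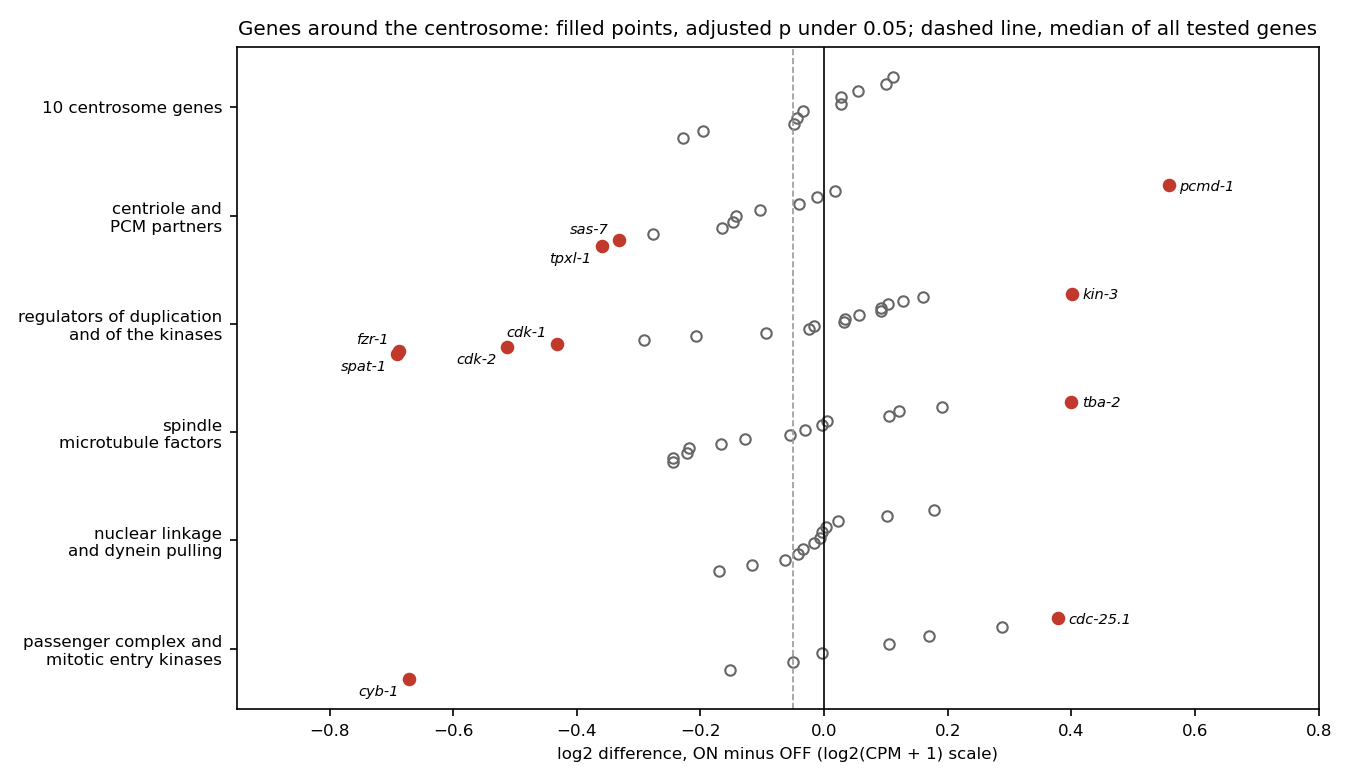
Log2 difference between ON and OFF on the log2(CPM + 1) scale for the 10 centrosome genes and for the tested genes of 5 lists around them. Filled, named points passed an adjusted p under 0.05, open points did not, and the dashed line is the median of all tested genes (-0.05). The 10 core genes lie between -0.23 and 0.11, inside the spread of the lists, which runs from -0.69 for spat-1 to 0.56 for pcmd-1.

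The transcript whose values over the 10 libraries were most like those of zyg-1 was mcm-6, a subunit of the replicative helicase. Likeness was the root mean square distance between log2(CPM + 1) values after centring each gene on its own mean, over 10 libraries and 6832 other genes. The distance was 0.0330 for mcm-6, 0.0413 for K04G7.1 and 0.0413 for ZK632.2. Like zyg-1, all 3 were without a call on the CPM scale (limma adjusted p = 0.222, 0.146 and 0.164) and were called lower in ON after TMM scaling (adjusted p = 0.0318, 0.0294 and 0.0123). They were chosen on these same values, which include the difference between ON and OFF. The shared test outcome thus largely follows from the choice and is no separate result. Of the other centrosome genes, spd-2 was nearest to zyg-1, at rank 358 with a distance of 0.0876, and tac-1 farthest, at rank 4198 with 0.202. These distances hold the differences in library scaling that all genes share.

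None of the 10 genes lies on the X chromosome, which holds 12.7% of all genes in the table and 3.09% of the tested genes. By chromosome, 3 are on III, 2 each on I, II and V, and 1 on IV.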

How the data were processed

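The authors deposited 1 table of gene values in CPM for 10 libraries. STAR 2.0.4b, featureCounts 1.4.5, edgeR and limma are named, per the submitters' processing notes; build, annotation and strand setting are not stated there. The deposited signal is CPM; 462 rows that repeat a gene with the same values were dropped. Divided by the smallest value of a library, 100% of values were whole within 0.01, which gave reads per gene; edgeR on these reads called 1145 genes higher and 1237 lower in ON. The 10 centrosome genes had 703 to 17270 reads per library, a counting error of at most 3.77%. Their median coefficient of variation between libraries was larger in both groups and on both scales. The smallest in ON was 3.62% on the CPM scale and 1.85% after TMM scaling, so counting error is not negligible for every gene. Such counting errors treat each read as a separate molecule, which reads without molecular identifiers need not be.

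Genes reaching 1 CPM in 5 or more libraries were compared with limma 3.58.1 (trended variance, R 4.3.3) on log2(CPM + 1), adjusted by Benjamini-Hochberg. Log2 differences are ON minus OFF. Single genes and ratios had a two-sided exact permutation test whose smallest p is 0.00794. Alternatives were TMM, median-ratio, quantile and non-ribosomal scaling, pseudocounts of 0.25 and 5, no filter and a filter at 5 CPM, edgeR 4.0.16 and DESeq2 1.42.0 on recovered reads, the replicate number or library number set as a block, and leaving out each library. The library numbers in the labels fall into 3 sets of nearby numbers, each with both groups. Blocked and leave-out fits on the TMM scale were chosen after seeing the data. The limma fit on CPM was tested on simulated counts with 200 of 6833 genes changed. It called 41.2% of changes of 0.3 and 72.8% of changes of 0.5 on the log2 scale, and 5.23% of its calls were false. The simulated libraries differed in depth but not otherwise in scaling, unlike the real ones, so these shares need not hold for the data.

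The members and lists were chosen with earlier results of these data known. Named genes are the 10 members, in each list up to 3 called genes by size of the difference and the most abundant uncalled gene, the 3 genes nearest to the member with the largest difference, and glp-1. The partner gip-1 is named through the list of ratios. The called genes cdk-1 and kin-3 are beyond that rule, as are lis-1, the markers and overlapping genes named, and genes below the filter; these were chosen after their values were seen. Coordinates are those of WBcel235 in the Ensembl annotation, matched by identifier.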

Additional observations from a re-analysis of the deposited data

Results flagged for a closer look

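The log2 ratio of spd-2 to spd-5 was -1.25 in OFF replicate 4, while the other 4 OFF libraries lay between -1.41 and -1.37. Its distance from the nearest of them was 0.792 of the range of the group, above the limit of Dixon's test for 5 values. Of 76 groups of 5 values checked this was 1, and chance flags about 1 group in 20. Without that library the ratio still differed between ON and OFF, by -0.12 (exact permutation test, two-sided, p = 0.0159, before adjustment over the 8 ratios).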

How the results depend on the processing

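The count of genes higher in ON over the whole table was 458 on the CPM scale, 1129 with TMM, 1219 with median-ratio and 1248 with quantile scaling, 782 with scaling to reads outside ribosomal RNA, 221 with a filter at 5 CPM, 1145 with edgeR and 1323 with DESeq2. The count lower in ON was 847 on the CPM scale, 1247 with TMM, 1155 with median-ratio and 1202 with quantile scaling. It was 1275 with scaling outside ribosomal RNA, 1237 with edgeR and 1211 with DESeq2. Of all tested genes, 6.70% were called higher and 12.4% lower on the CPM scale, and 16.5% and 18.2% with TMM. Centrosome genes called higher numbered 0 on the CPM scale, 1 with TMM and edgeR, and 2 with median-ratio and quantile scaling and DESeq2; those called lower numbered 0, against 1 with median-ratio scaling and 2 with TMM, quantile and non-ribosomal scaling, edgeR and DESeq2. The cause of these differences between settings was not tested.

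Leaving out each library on the CPM scale gave 346 to 628 genes higher and 620 to 1060 lower over the whole table, and 0 to 1 centrosome genes lower. After TMM scaling the leave-out fits gave 0 to 2 centrosome genes higher and 1 to 2 lower. The counts over all tested genes were not taken for these TMM fits. With the replicate block there were 517 higher, 1028 lower and 0 centrosome genes called on the CPM scale. After TMM scaling with that block 2 centrosome genes were higher and 2 lower. The share of all tested genes called was not counted with that block, and was 34.8% after TMM scaling without it. Deviations of same-numbered libraries correlated at -0.02 to 0.46, and for 2 of 5 numbers the libraries correlated best with each other. With only 5 numbers this cannot decide whether the numbers pair the libraries.

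Some differences near 0 changed sign, all without a call. With the library number sets as a block, sas-4 was at -0.0240 and sas-5 at -0.0094. With median-ratio scaling sas-6 was at 0.0115, spd-5 at 0.0077, air-1 at 0.0222, zyg-9 at 0.0149, plk-2 at 0.0402 and dhc-1 at 0.0493, and with DESeq2 at 0.0106, 0.0092, 0.0209, 0.0155, 0.0407 and 0.0520. With quantile scaling sas-6 was at 0.0231 and air-1 at 0.0017. With TMM air-1 was at 0.0103, zyg-9 at 0.0029, plk-2 at 0.0282 and dhc-1 at 0.0372, with edgeR at 0.0089, 0.0036, 0.0290 and 0.0402, and dhc-1 was at 0.0037 with non-ribosomal scaling. Leaving out 1 library, the range was -0.0448 to 0.0759 for sas-4, -0.0366 to 0.0897 for sas-5, -0.11 to 0.0040 for sas-6, -0.11 to 0.0204 for spd-5, -0.0725 to 0.0144 for air-1, -0.0100 to 0.12 for plk-1, -0.12 to 0.0359 for zyg-9, -0.0658 to 0.0382 for plk-2 and -0.0983 to 0.0719 for dhc-1.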
